A study of Mus musculus with 4 samples.

Results

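The FGF receptors and mesenchymal FGF ligands are 10 genes, the receptors *Fgfr1*, *Fgfr2*, *Fgfr3*, *Fgfr4* and *Fgfrl1* and the ligands *Fgf2*, *Fgf7*, *Fgf9*, *Fgf10* and *Fgf18*. They were taken by symbol from the 55385 gene IDs of the series, and all 10 were in the table and passed the filter on low counts that left 19479 genes to test. RNA was measured in lymphatic endothelial cells (LECs) that had been sorted as CD45- PDPN+ CD31+ cells from the trunk tissue of E13.5 mouse embryos, without inner organs, limbs, tail and cranial tissue (in the methods of the study, the cranial tissue that lies above the tongue). Of the 4 libraries, 2 are labelled *Osr1*-KO and came from *Osr1*GCE/GCE embryos, and 2 are labelled control and came from *Osr1*controls embryos, with the cells of 8 to 10 embryos pooled in each. The labels give the control genotype as wild type, whereas the study describes *Osr1*controls as *Osr1*+/+ and *Osr1*GCE/+ embryos together. GCE is a knock-in allele at *Osr1*, a gene of mesenchymal cells, which marks *Osr1*-expressing cells with eGFP and disrupts the gene. Homozygous embryos carry it in every tissue, LECs included. The study states that *Osr1* is not detected in LECs at E13.5 and is transcribed mainly in mesenchyme. The comparison addresses how the LEC transcriptome differs between homozygous embryos and *Osr1*controls. The design by itself does not separate an effect of the mesenchyme from one in the LECs.

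FGFs bind receptor tyrosine kinases on the cell surface together with heparan sulfate chains, and the activated receptor signals through the adaptor FRS2 to RAS and ERK, whose target genes include feedback inhibitors such as the Sprouty and DUSP proteins. Many FGFs are made by mesenchyme and act on neighbouring epithelium, cartilage or endothelium. In endothelium FGFR1 is the best-studied receptor, and FGF2 is a known mitogen of cultured LECs.

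The libraries labelled *Osr1*GCE/GCE held 37865172 and 31586765 reads in genes and the *Osr1*controls libraries 53438492 and 36535451. Values are given as normalized counts, which are reads divided by a size factor for each library, and for levels between genes as TPM, which also takes out the length of the exons. *Osr1* itself read higher in the *Osr1*GCE/GCE-labelled libraries (168 and 303 normalized counts, against 32.8 and 30.4 in *Osr1*controls, log2 fold change 2.80, standard error 0.31, adjusted p = 0.0262), so its counts do not show the loss that the label names. Since reads were summed over the gene, transcripts of the GCE allele and of an intact allele cannot be told apart, and every direction below is one between labelled groups. The LEC genes *Prox1*, *Flt4* and *Lyve1* averaged 312, 582 and 293 TPM over the libraries, and the sorting markers *Pdpn* and *Pecam1* averaged 231 and 387 TPM. The smallest two-sided p that an exact permutation of 2 libraries against 2 allows is 0.333, and the adjusted p-values come from limma, which shares the spread across genes. Apart from the pooling of embryos, nothing states that the libraries came from separate litters or sorts, and the p-values measure the spread between these libraries only.

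None of the 10 genes was called different between the groups, in a comparison in which 2.89% of all tested genes were called (562 genes, with 341 or 1.75% lower and 221 or 1.13% higher in the *Osr1*GCE/GCE-labelled libraries). Calls required a log2 fold change of 0.3 or more in size, an adjusted p under 0.05 (Benjamini-Hochberg, over all tested genes) and a mean TPM over 1. The fold changes of 9 of the 10 genes lay below 0 (all but *Fgfr1*, and of all 10 under scaling by library totals), against 52.8% of all tested genes, and their median was -0.35, against -0.02 over all tested genes. In 7 genes both *Osr1*GCE/GCE-labelled libraries lay below both *Osr1*controls libraries (28.9% of all tested genes did so), and in no gene did both lie above (24.7%). These 7 were *Fgfr2*, *Fgfr4*, *Fgfrl1*, *Fgf2*, *Fgf7*, *Fgf9* and *Fgf18*. At an unadjusted p under 0.05, 5 of the 10 genes were lower (13.0% of all tested genes were). The test used decided the call for *Fgf2* and *Fgfr4*, which had the smallest adjusted p of the 10. DESeq2, run on the whole reads that the normalized counts gave back, called both lower (adjusted p = 0.0416 for *Fgf2* and 0.0448 for *Fgfr4*, where 4.40% of all tested genes were called lower), and edgeR called neither (0.0872 and 0.0953, where 1.10% were called lower). Raising the limit on limma's adjusted p to 0.1 also called these 2 genes, with 4.70% of all tested genes called lower.

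The 10 genes covered a wide range of levels in these sorted cells. *Fgfr1* stood first with a mean of 113 TPM over the 4 libraries and a range of 101 to 125 TPM, above 92.0% of the tested genes. *Fgfrl1* followed with 31.8 TPM, then *Fgfr2* with 21.4 TPM, *Fgf18* with 17.7 TPM and *Fgfr3* with 16.0 TPM. The ranges of *Fgfr1* and *Fgfrl1* did not overlap, nor did those of *Fgfrl1* and *Fgfr2*. *Fgfr2* and *Fgf18* overlapped in range although *Fgfr2* was the higher in each of the 4 libraries, and *Fgf18* lay above *Fgfr3* in only 3 of them. A gap separated *Fgfr3* from the low group, in which *Fgfr4* averaged 5.28 TPM, *Fgf2* 3.38 TPM, *Fgf7* 2.81 TPM, *Fgf10* 2.27 TPM and *Fgf9* 1.33 TPM, each overlapping the next in range. The lowest of these, *Fgf9*, lay above 16.9% of the tested genes.

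**Figure D1:**
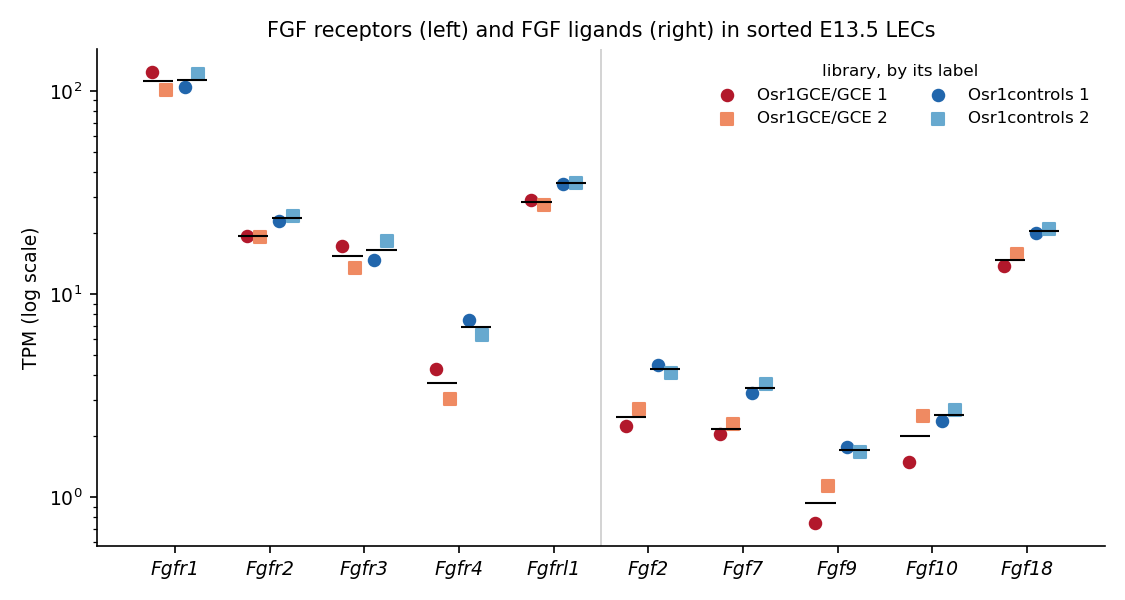
Levels of the 10 genes in each library, in TPM on a log axis, with the libraries labelled Osr1GCE/GCE to the left of the Osr1controls libraries of each gene and a bar at the mean of each pair. Fgfr1 lies between 101 and 125 TPM in every library, and Fgfr4, Fgf2, Fgf7 and Fgf9 show both Osr1GCE/GCE points below both Osr1controls points.

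*Fgfr1*, the receptor with the highest level, and *Fgfr3* had the smallest fold changes of the 10 genes. *Fgfr1* (chr8:25513654-25575718 on mm10, plus strand) had 13083 and 10550.3 normalized counts in the *Osr1*GCE/GCE-labelled libraries, against 10505 and 11960.5 in *Osr1*controls. The groups overlapped, and the first *Osr1*GCE/GCE-labelled library and the second of *Osr1*controls were the high ones. The log2 fold change was 0.07 (standard error 0.12, 95% interval -0.21 to 0.35, adjusted p = 0.798), and -0.0044 under scaling by library totals. In TPM *Fgfr1* averaged 113 ± 16.6 in the *Osr1*GCE/GCE-labelled libraries and 113 ± 12.3 in *Osr1*controls (SD, n = 2 each). *Fgfr3* (chr5:33721674-33737068, plus strand), known for restraining growth of cartilage, had 1320.2 and 1015 normalized counts in the *Osr1*GCE/GCE-labelled libraries, against 1073 and 1306 in *Osr1*controls. The same libraries were high as for *Fgfr1*, the groups overlapped, and the log2 fold change was -0.03 (95% interval -0.39 to 0.33, adjusted p = 0.932). The interval of *Fgfr3* reaches past 0.3 in both directions and that of *Fgfr1* only above 0.

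*Fgfr2* and *Fgfrl1* were slightly lower in the *Osr1*GCE/GCE-labelled libraries, with tight replicates and no call. *Fgfr2* (chr7:130162451-133123350, minus strand) encodes the receptor through which FGF7 and FGF10 act on epithelium in its IIIb splice form, and gene counts do not separate its splice forms. It had 2138 and 2089 normalized counts in the *Osr1*GCE/GCE-labelled libraries, against 2402 and 2502 in *Osr1*controls. The groups did not overlap, and the log2 fold change was -0.21 (standard error 0.09, 95% interval -0.42 to -0.0059, adjusted p = 0.223). *Fgfrl1* (chr5:108692382-108706924, plus strand) encodes a receptor that binds FGFs but has no kinase domain. It had 862 and 809 normalized counts in the *Osr1*GCE/GCE-labelled libraries, against 992 and 979.6 in *Osr1*controls. The groups did not overlap here either, and the log2 fold change was -0.24 (standard error 0.11, 95% interval -0.49 to 0.01, adjusted p = 0.256).

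*Fgfr4* had the largest fold change among the receptors. *Fgfr4* (chr13:55152640-55168759, plus strand), a receptor known from liver, where it answers to FGF19 or its mouse counterpart FGF15, and from embryonic muscle, had 162 and 114 normalized counts in the *Osr1*GCE/GCE-labelled libraries, against 269.9 and 222 in *Osr1*controls. Both *Osr1*GCE/GCE-labelled libraries were low, with 149 and 92 reads, and the groups did not overlap. The log2 fold change was -0.85 (standard error 0.23, 95% interval -1.37 to -0.32), and the adjusted p of 0.0856 did not pass. The call appeared when the second *Osr1*controls library was left out (log2 fold change -0.99, adjusted p = 0.0493, where 5.38% of all tested genes were called lower) and when no filter on low counts was used (adjusted p = 0.0471, 1.85% called lower). *Fgfr1* held 75.2% and 74.0% of the summed TPM of *Fgfr1* to *Fgfr4* in the *Osr1*GCE/GCE-labelled libraries, against 69.9% and 71.3% in *Osr1*controls. *Fgfr4* held 2.59% and 2.23% of that sum in the *Osr1*GCE/GCE-labelled libraries, against 5.01% and 3.69% in *Osr1*controls. Thus in all 4 libraries *Fgfr1* was the bulk of receptor transcript and *Fgfr4* its smallest share.

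The fold changes of all 5 ligands lay below 0, with a median of -0.58, and none was called. By TPM *Fgf18* made up most ligand transcript, with 68.0% and 64.5% of the summed TPM of the 5 ligands in the *Osr1*GCE/GCE-labelled libraries and 62.8% and 63.5% in *Osr1*controls. That sum was 20.4 and 24.5 TPM in the *Osr1*GCE/GCE-labelled libraries, against 32.0 and 33.1 TPM in *Osr1*controls. The share of *Fgf18* rests on its short annotated exons, 1187 bases against 6782 for *Fgf2*. In reads *Fgf18* had 161 and 160 in the *Osr1*GCE/GCE-labelled libraries and 341 and 237 in *Osr1*controls. *Fgf2* had 149 and 157, and 435 and 264. In bulk RNA fewer cells of a type cannot be told from less RNA per cell, and this holds for every difference given here.

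*Fgf2*, which lacks a classical secretion signal and is made by many cell types, endothelium included, came nearest to a call. *Fgf2* (chr3:37348346-37410108, plus strand) had 162 and 194 normalized counts in the *Osr1*GCE/GCE-labelled libraries, against 309.8 and 276 in *Osr1*controls. Both *Osr1*GCE/GCE-labelled libraries lay below both of *Osr1*controls, and the log2 fold change was -0.72 (standard error 0.19, 95% interval -1.14 to -0.30, adjusted p = 0.0746). Its exons share 640 bases, 9.44% of their length, with *Nudt6* on the opposite strand, and without strand information from the library kit the reads of the shared stretch cannot be assigned to either gene. *Nudt6* had 98.8 and 135 normalized counts in the *Osr1*GCE/GCE-labelled libraries, against 98.3 and 134 in *Osr1*controls, so the groups overlapped.

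*Fgf7* and *Fgf10* encode mesenchymal ligands of the epithelial form of FGFR2. *Fgf7* (chr2:126034658-126091185, plus strand) had 70.6 and 79.3 normalized counts in the *Osr1*GCE/GCE-labelled libraries, against 108 and 117 in *Osr1*controls. The groups did not overlap (log2 fold change -0.58, standard error 0.23, 95% interval -1.11 to -0.05, adjusted p = 0.198). *Fgf10* (chr13:118669791-118792115, plus strand), which limb and lung buds need for their outgrowth, had 72.7 and 123 normalized counts in the *Osr1*GCE/GCE-labelled libraries, against 112 and 122 in *Osr1*controls. Only the first *Osr1*GCE/GCE-labelled library was low, the groups overlapped, and the log2 fold change was -0.31 (standard error 0.28, 95% interval -0.96 to 0.34, adjusted p = 0.581). Whether *Fgf7* and *Fgf10* differed from each other in their change was not tested.

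*Fgf9* and *Fgf18* encode secreted ligands of different FGF subfamilies, *Fgf18* being a relative of *Fgf8* and *Fgf17*. *Fgf9* (chr14:58070547-58112720, plus strand), known from lung mesothelium and epithelium and from the testis, was the lowest of the ligands. It had 36.9 and 55.7 normalized counts in the *Osr1*GCE/GCE-labelled libraries, from 34 and 45 reads, against 83.3 and 77.4 in *Osr1*controls, from 117 and 74 reads. The ranges of the groups stood apart, and the log2 fold change was -0.81 (standard error 0.29, 95% interval -1.48 to -0.14, adjusted p = 0.162). *Fgf18* (chr11:33117430-33147400, minus strand), known for its part in growth of cartilage, bone and lung, had 175 and 198 normalized counts in the *Osr1*GCE/GCE-labelled libraries, against 243 and 248 in *Osr1*controls. The groups did not overlap, and the replicates of each lay close together. The log2 fold change was -0.40 (standard error 0.18, 95% interval -0.80 to 0.01, adjusted p = 0.244).

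**Figure D2:**
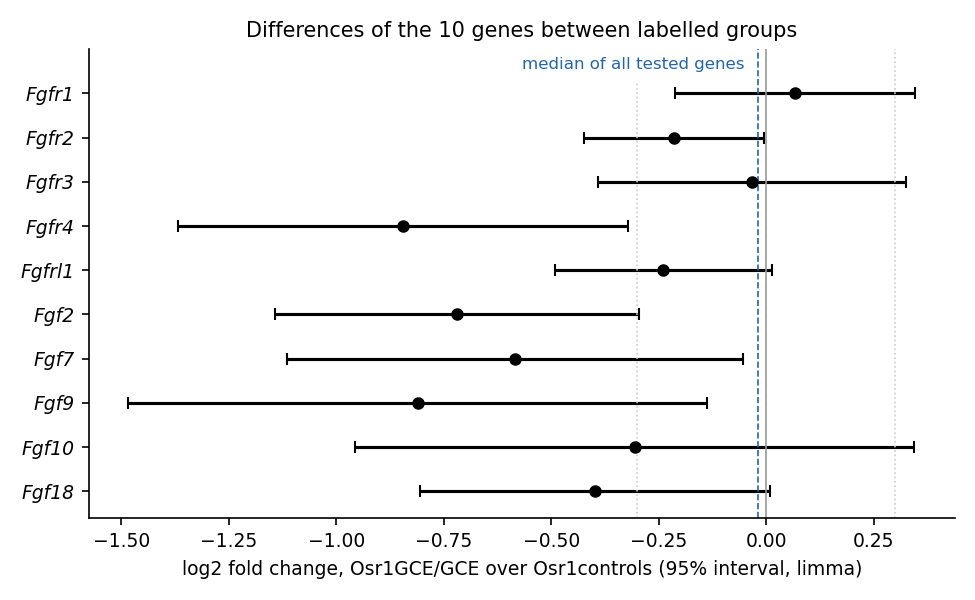
Log2 fold changes of the 10 genes, libraries labelled Osr1GCE/GCE over Osr1controls, with 95% intervals from limma that are not adjusted for the number of genes. Dotted lines mark the threshold of 0.3 and the dashed line the median of all tested genes at -0.02, and 9 of the 10 points lie below 0, all but that of Fgfr1, which turns below 0 under scaling by library totals. None of the genes was called.

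The 250 bases before the RefSeq start (GRCm38.p6, the assembly of mm10) were read for the 9 members that the RefSeq table holds, which gave 10 promoters, with *Fgfr3* represented by 2 starts. *Fgf7* and *Fgf18* are printed, since only their windows lie wholly before the gene in the GENCODE annotation as well. The *Fgf7* window is chr2:126034408-126034657 on the plus strand and the *Fgf18* window chr11:33147401-33147650 on the minus strand, each given 5′ to 3′ along its gene, with a match to a searched motif in capitals. The motifs, searched on both strands, were the GC box GGGCGG, the TATA box TATAAA and the ETS core CCGGAA, none of which contains another.
Fgf7: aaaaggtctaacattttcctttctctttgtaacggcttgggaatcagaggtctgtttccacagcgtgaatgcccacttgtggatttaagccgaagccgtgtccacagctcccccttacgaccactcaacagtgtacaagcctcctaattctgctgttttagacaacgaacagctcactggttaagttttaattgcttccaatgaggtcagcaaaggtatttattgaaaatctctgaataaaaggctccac
Fgf18: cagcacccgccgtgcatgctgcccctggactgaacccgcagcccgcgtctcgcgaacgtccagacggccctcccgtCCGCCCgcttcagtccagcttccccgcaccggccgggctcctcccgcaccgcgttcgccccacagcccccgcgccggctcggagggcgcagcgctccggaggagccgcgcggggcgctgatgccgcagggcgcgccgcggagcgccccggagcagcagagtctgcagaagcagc
The *Fgf7* window held 43.6% G or C and 6 CpG dinucleotides, with no match to the 3 motifs. The *Fgf18* window held 77.2% G or C, 37 CpG and 1 GC box, whose reverse complement is the run in capitals. Over the 32851 promoters of the table the medians were 52.4% and 6 CpG, and 32.7% of promoters held a GC box, 12.4% a TATA box and 12.0% an ETS core. Among the member windows a GC box was also found for *Fgf2*, *Fgf10*, *Fgfr3*, *Fgfr4* and *Fgfrl1*, and an ETS core for *Fgfr4* and *Fgfrl1*. These matches are descriptions of the letters and were not related to the measured levels.

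Leaving out a library moved the direction of 3 genes and left the other 7 below 0 in all 4 such fits. *Fgfr1* ranged over -0.09 to 0.22 on the log2 scale, *Fgfr3* over -0.22 to 0.16 and *Fgf10* over -0.68 to 0.07. *Fgf10* was above 0 only without the first *Osr1*GCE/GCE-labelled library, the low one named above. Among the other receptors *Fgfr4* ranged over -1.10 to -0.59, *Fgfrl1* over -0.29 to -0.19 and *Fgfr2* over -0.24 to -0.18. Among the other ligands *Fgf2* ranged over -0.85 to -0.59, *Fgf7* over -0.67 to -0.50, *Fgf9* over -1.10 to -0.52 and *Fgf18* over -0.49 to -0.31. A group then holds a lone library, which is assumed to vary like those of the other group.

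**Figure D3:**
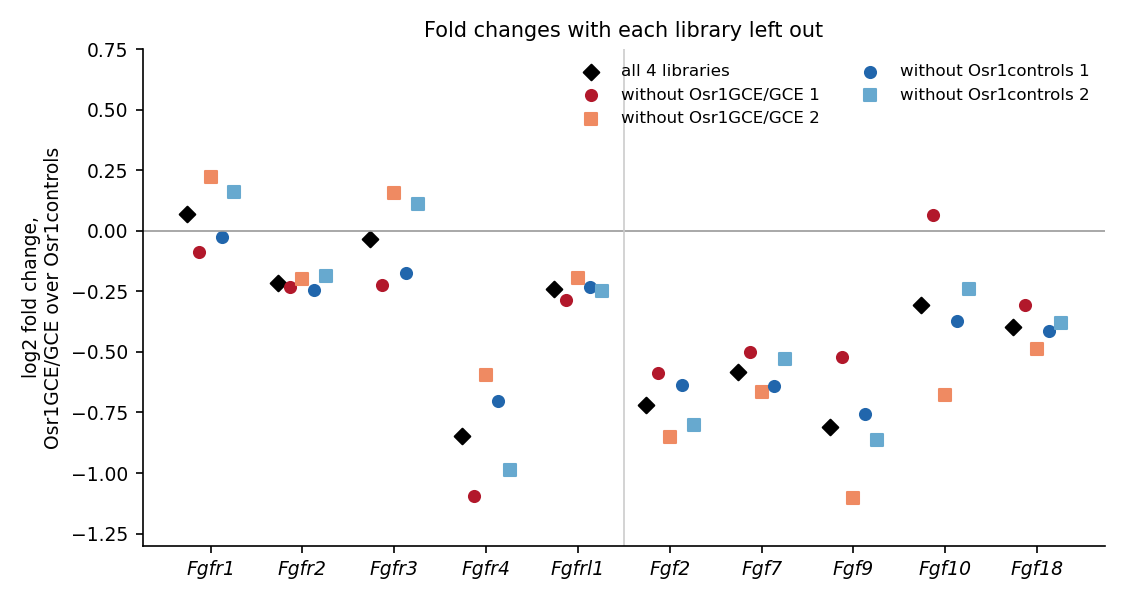
Log2 fold changes of the 10 genes, Osr1GCE/GCE over Osr1controls, with all 4 libraries and with each library left out. Fgfr1, Fgfr3 and Fgf10 have points on both sides of 0, and the other 7 genes lie below 0 in every fit shown.

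Markers of other cell types also differed between the groups. The summed TPM of 15 mesenchymal markers was 1626 and 1913 in the *Osr1*GCE/GCE-labelled libraries, against 3257 and 2623 in *Osr1*controls. Of the 15, 13 did not overlap in the lower direction (28.9% of all tested genes did so). Of these markers 5 were called lower (*Col1a1*, *Twist1*, *Twist2*, *Osr2* and *Crabp1*), and *Osr1* alone was called higher. Over all tested genes 1.75% were called lower and 1.13% higher, which is the background for each list of markers here. The median log2 fold change of the 15 markers was -0.69. The 10 skeletal muscle markers summed to 114 and 124 TPM in the *Osr1*GCE/GCE-labelled libraries, against 235 and 252 TPM in *Osr1*controls, with 5 called lower. The 9 chondrogenic markers summed to 207 and 211 TPM in the *Osr1*GCE/GCE-labelled libraries, against 423 and 246 TPM in *Osr1*controls, with none called, and the first *Osr1*controls library stood apart. The 11 epithelial markers summed to 94.2 and 226 TPM in the *Osr1*GCE/GCE-labelled libraries, against 275 and 229.8 TPM in *Osr1*controls. The first *Osr1*GCE/GCE-labelled library, lowest in this sum, was also the lowest of the 4 in each of the 5 ligands. The 10 neural and glial markers summed to 137 and 170.5 TPM in the *Osr1*GCE/GCE-labelled libraries, against 253 and 207 TPM in *Osr1*controls, with *Erbb3* called lower, and the mesothelial markers to 9.15 and 9.22 TPM in the *Osr1*GCE/GCE-labelled libraries, against 16.1 and 21.02 TPM in *Osr1*controls, with none of the 4 tested called. Of the 10 tested LEC markers 5 were called higher (*Flt4*, *Pdpn*, *Mmrn1*, *Nrp2* and *Itga9*), and the LEC list summed to 4065 and 3840.4 TPM in the *Osr1*GCE/GCE-labelled libraries, against 2308 and 3109.5 TPM in *Osr1*controls. The 11 blood endothelial markers had a median of -0.23 with *Kdr* called higher, 2 of 5 pan-endothelial markers were called higher (*Tie1* and *Erg*), and the 7 blood cell markers had a median of -0.12 with none called. No marker was at 0 reads in every library, and the mesothelial *Msln* was at 0 in the second *Osr1*GCE/GCE-labelled library. The LEC marker *Ccl21a*, which has near-identical copies that can split its reads, stayed under the filter.

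The calls among these markers depended on single libraries, as did the number of calls over all tested genes, so medians are given here. Without the first *Osr1*GCE/GCE-labelled library the median log2 fold change was -0.54 for mesenchymal, -0.79 for skeletal muscle and 0.61 for LEC markers. Without the second it was -0.79 for mesenchymal, -0.91 for skeletal muscle and 0.66 for LEC markers. For epithelial markers the median was -0.08 without the first and -1.24 without the second of these libraries (-0.46 with all libraries). Without the first *Osr1*controls library the median log2 fold change was -0.41 for mesenchymal, -0.99 for skeletal muscle and 0.48 for LEC markers. It was -0.09 for chondrogenic (-0.49 with all libraries) and 0.04 for blood endothelial markers, which was a change of sign. Without the second *Osr1*controls library the medians were -0.85 for mesenchymal, -0.83 for skeletal muscle and 0.73 for LEC markers. They were then -0.88 for chondrogenic and -0.49 for blood endothelial markers. With all libraries the medians were -0.91 for skeletal muscle and 0.62 for LEC markers. The median of the blood cell markers ranged from -0.46 to 0.23 over the 4 fits. DESeq2 called 10 mesenchymal, 7 skeletal muscle, 3 epithelial, 2 chondrogenic (*Matn4* and *Sox9*) and 2 neural and glial markers lower, where 4.40% of all tested genes were called lower. The part that other cell types play in the lower values of the FGF ligands and *Fgfr4* was not tested.

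**Figure D4:**
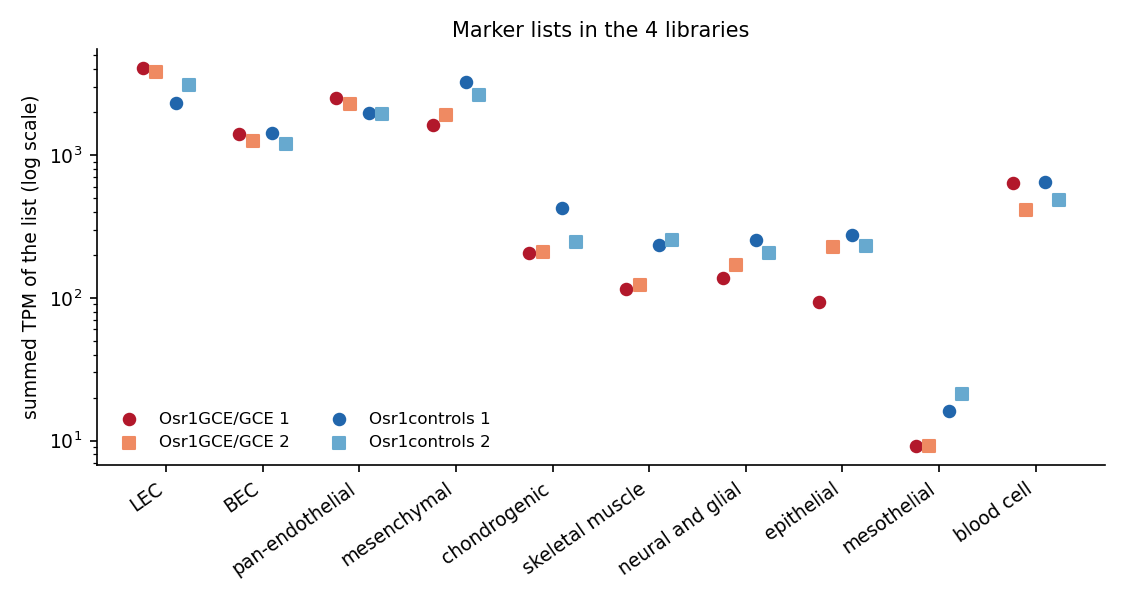
Summed TPM of each marker list in the 4 libraries, on a log axis, with the libraries labelled Osr1GCE/GCE to the left of Osr1controls. The mesenchymal, chondrogenic, skeletal muscle, neural and glial, epithelial and mesothelial sums are lower in both libraries labelled Osr1GCE/GCE than in both Osr1controls libraries, and the LEC and pan-endothelial sums are higher.

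The remaining FGF genes showed no common direction. The table held 17 of them, of which 11 passed the filter. None was called by limma (1 had an unadjusted p under 0.05) or by edgeR, and their median log2 fold change was 0.05. DESeq2 called 1 lower, where 4.40% of all tested genes were. *Fgf13* and *Fgf12*, which encode intracellular FGFs that bind sodium channels and no receptor, had the highest levels of the list with 17.6 and 9.84 TPM. *Fgf13* had 731 and 845 normalized counts in the *Osr1*GCE/GCE-labelled libraries, against 702 and 653 in *Osr1*controls (log2 fold change 0.21, adjusted p = 0.378). *Fgf12* had 755 and 647 in the *Osr1*GCE/GCE-labelled libraries, against 524 and 603 in *Osr1*controls (0.31, adjusted p = 0.246). In both genes the *Osr1*GCE/GCE-labelled libraries lay above those of *Osr1*controls without overlap. *Fgf11*, another intracellular FGF, had 188 and 207 normalized counts in the *Osr1*GCE/GCE-labelled libraries, against 439 and 267 in *Osr1*controls (-0.79, adjusted p = 0.117). DESeq2 called *Fgf11* lower (adjusted p = 0.0416), and limma did so without the second *Osr1*controls library (0.00653). *Fgf1*, *Fgf5*, *Fgf8*, *Fgf16* and *Fgf17* and the intracellular *Fgf14* had fold changes between -0.16 and 0.10 and means of at most 2.54 TPM. *Fgf21*, a hormone-like FGF, had 10.9 and 18.6 normalized counts in the *Osr1*GCE/GCE-labelled libraries, against 7.83 and 7.33 in *Osr1*controls (0.83, adjusted p = 0.375). *Fgf15* had 33.7 and 22.3 in the *Osr1*GCE/GCE-labelled libraries, against 138 and 12.6 in *Osr1*controls, and the *Osr1*controls pair enclosed both other libraries (log2 fold change -0.61, standard error 1.30, adjusted p = 0.841). *Fgf15* was called lower without the second *Osr1*controls library (-2.29, adjusted p = 0.00653) and turned to 1.07 without the first.

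Among co-receptors and binding partners 4 of 25 tested genes fell (1.75% of all tested genes did) and none rose (1.13%). With edgeR 2 were called lower (*Gpc1* and *Gpc4*), where 1.10% of all tested genes were. DESeq2 called 9 lower, where 4.40% were, and 1 higher, where 678 of the 19479 tested genes were. The 4 that limma called were the heparan sulfate proteoglycans *Gpc1*, *Gpc3* and *Gpc4*, and *Sulf1*. The *Gpc* genes encode glypicans that hold FGFs and other ligands at the cell surface. *Sulf1* encodes an extracellular sulfatase that trims heparan sulfate and dampens FGF signaling. The median of the list was -0.28, against -0.02 over all tested genes, and in 15 of the 25 both *Osr1*GCE/GCE-labelled libraries lay below both of *Osr1*controls (28.9% of all tested genes did so). *Gpc4* had 611 and 757 normalized counts in the *Osr1*GCE/GCE-labelled libraries, against 1252 and 1114 in *Osr1*controls (log2 fold change -0.79, standard error 0.14, adjusted p = 0.0333). *Gpc1* had 1202 and 1275 in the *Osr1*GCE/GCE-labelled libraries, against 2039.8 and 1836 in *Osr1*controls (-0.64, standard error 0.10, adjusted p = 0.0329). In neither gene did the groups overlap. *Gpc3*, the most abundant of the list at 429.99 TPM, had 8599 and 10218 in the *Osr1*GCE/GCE-labelled libraries, against 15622 and 13099 in *Osr1*controls (-0.61, standard error 0.12, adjusted p = 0.0434). *Sulf1* had 2405 and 2527 in the *Osr1*GCE/GCE-labelled libraries, against 3744 and 3242 in *Osr1*controls (-0.50, standard error 0.10, adjusted p = 0.0453). All 4 calls were lost in limma with the replicate number as a block (adjusted p 0.0553 to 0.0852). That fit called 125 genes in all, against 562. Without limma's trend and robust options no tested gene was called, so the loss there was fixed in advance. Under TMM scaling *Gpc3* and *Sulf1* lost their calls in limma (0.0513 and 0.0507), where 468 genes were called. Without the first *Osr1*GCE/GCE-labelled library all 4 calls were lost, as were most calls over all tested genes. With a library left out the log2 fold changes ranged over -0.72 to -0.57 for *Gpc1* and -0.74 to -0.48 for *Gpc3*. They ranged over -0.95 to -0.64 for *Gpc4* and -0.60 to -0.40 for *Sulf1*. *Sulf2*, a related sulfatase and the next in level after *Gpc3* with 162 TPM, had 8872 and 8837 in the *Osr1*GCE/GCE-labelled libraries, against 11231 and 10262 in *Osr1*controls (-0.28, adjusted p = 0.123). The sums of mesenchymal markers given above differed in the same direction as these genes, and their part was not tested.

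The signal transducers showed no call in 26 tested genes (2.89% of all tested genes were called), and their median log2 fold change was 0.10. In 12 of the 26 both *Osr1*GCE/GCE-labelled libraries lay above both of *Osr1*controls (24.7% of all tested genes), and in 2 below both (28.9%). Fold changes of 6 lay below 0. Neither edgeR nor DESeq2 called any of them, and 4 had an unadjusted p under 0.05 in limma, against 4169 of the 19479 tested genes. *Crk*, an adaptor of receptor signaling, had the highest level with 194 TPM, with 10717 and 9661 normalized counts in the *Osr1*GCE/GCE-labelled libraries, against 9071 and 8615 in *Osr1*controls (0.20, adjusted p = 0.247). *Plcg1*, a phospholipase that binds activated FGF receptors, followed with 173 TPM and a fold change of 0.22 (adjusted p = 0.238). The fold changes of the list lay between -0.23 and 0.31.

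Of 21 ERK targets and feedback inhibitors 1 fell, *Ier3*, and none rose, with a median of 0.04. Over all tested genes 1.75% were called lower and 1.13% higher. In 7 of the 21 both *Osr1*GCE/GCE-labelled libraries lay below both of *Osr1*controls (28.9% of all tested genes), and in 5 above both (24.7%). In limma 10 of the 21 had an unadjusted p under 0.05, against 4169 of the 19479 tested genes. *Ier3*, an early response gene, had 1807 and 1701 normalized counts in the *Osr1*GCE/GCE-labelled libraries, against 2420.1 and 2701 in *Osr1*controls (log2 fold change -0.54, standard error 0.10, adjusted p = 0.0377). The groups did not overlap. The call was lost in limma with the replicate block (adjusted p = 0.0742), where 125 genes were called in all, against 562. Without limma's trend and robust options no tested gene was called. Leaving out the first or the second *Osr1*GCE/GCE-labelled library also cost the call (log2 fold change -0.59 and -0.50). The most abundant genes of the list had fold changes of opposite sign and no call. *Egr1*, an immediate early transcription factor with 499 TPM, had 13860.3 and 20460.2 normalized counts in the *Osr1*GCE/GCE-labelled libraries, against 29668 and 27738 in *Osr1*controls (-0.77, adjusted p = 0.0896). *Dusp6*, the phosphatase that removes ERK activation and a common readout of FGF signaling, had 12782 and 13241 in the *Osr1*GCE/GCE-labelled libraries, against 10156 and 11163 in *Osr1*controls (0.29, adjusted p = 0.116). DESeq2 called 4 genes of the list lower, *Ier3*, *Egr1* (adjusted p = 0.00109), *Etv5* and *Il17rd*, and *Dusp6* higher (0.0375). It called 4.40% of all tested genes lower and 678 of the 19479 higher. *Etv5*, an ETS transcription factor, and *Il17rd*, an inhibitor of FGF signaling, were picked out after their values were seen, and in limma they had log2 fold changes of -0.54 (adjusted p = 0.131) and -0.44 (0.0678). With a library left out the median of the list lay between -0.09 and 0.04. *Egr1* then ranged over -1.05 to -0.49 and *Dusp6* over 0.22 to 0.36. Calls in the list changed with the library left out, as did the number of calls over all tested genes.

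**Figure D5:**
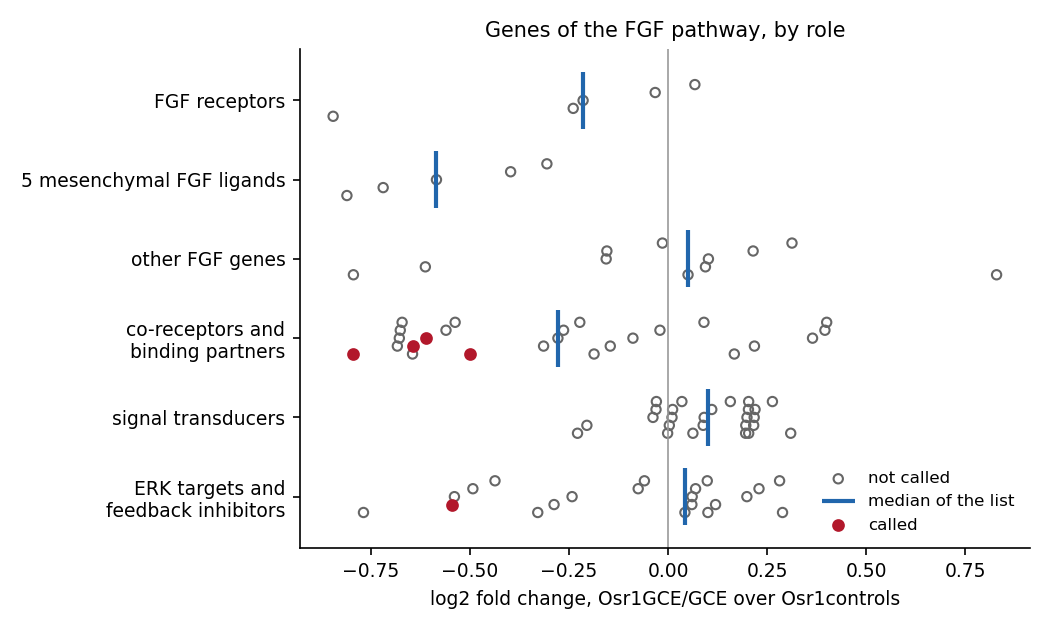
Log2 fold changes of the tested genes of 6 lists, libraries labelled Osr1GCE/GCE over Osr1controls, with called genes filled and a bar at the median of each list. The medians are -0.21 for receptors, -0.58 for ligands, 0.05 for other FGF genes, -0.28 for co-receptors and binding partners, 0.10 for transducers and 0.04 for ERK targets, and 5 genes are called, all lower.

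The exons of 5 members share bases with another annotated gene. Besides *Nudt6*, *Fgf2* shares 255 bases with *Gm43439* on its own strand, which had no reads. *Fgfr2*, whose annotated span holds many other genes, shares 314 bases, 3.04% of its exons, with *Ctbp2* on the same strand. *Ctbp2* had 4354 and 3672 normalized counts in the *Osr1*GCE/GCE-labelled libraries, against 3196 and 3714 in *Osr1*controls, so the groups overlapped. *Fgfr3* shares 998 bases with *G630022F23Rik*, which had at most 21.7 normalized counts in a library, *Fgfr1* shares 164 bases with *Gm16159* and *Fgf10* 123 bases with *Gm16263*, both at 6.51 normalized counts or less. Of the called genes *Gpc1* shares 977 bases, 18.9% of its exons, with *Ankmy1* on the opposite strand, which had at most 16.7 normalized counts.

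The profile over the 4 libraries was compared with those of 16872 genes by the root mean square difference of mean-centred log2 values. Nearest to *Fgfr1* were *Eme1*, *Tmem238* and *Ankrd11*, with differences of 0.015, 0.016 and 0.018, and 185 genes lay within 0.05. Nearest to *Fgf18* were *Tcaim*, *Stoml1* and *Tctn1*, with differences of 0.011, 0.011 and 0.012, and 87 genes lay within 0.05. With 4 points a profile is easily shared, and these names are a description only.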

How the data were processed

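RNA-seq libraries of sorted E13.5 LECs were prepared by the authors with a kit that keeps no strand information (TruSeq V2), aligned to mm10 with STAR and counted per gene with featureCounts. Tool versions (not given in the sources used here) could not be stated. The deposited values are a normalized count signal, read counts that the authors divided by DESeq2 size factors. Each library's smallest value above 0 was taken as 1 read, and 100% of the values then came to whole reads within 0.001. The size factors were 0.921 and 0.807 for the *Osr1*GCE/GCE-labelled libraries and 1.40 and 0.955 for *Osr1*controls. Symbols, coordinates and exon lengths came from GENCODE release 21, which held 55144 of the 55385 IDs (241 were not found), and TPM was computed from normalized counts and union exon length. Mitochondrial genes held 2.65% to 3.26% of reads, and replicates of a group correlated at 0.986 and 0.989 over genes.

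Groups were compared with limma 3.58.1 in R 4.3.3 (trend and robust options) on log2(normalized count + 1), over the 19479 genes whose mean was 10 or more. Fold changes on that scale understate the change of low genes. Thresholds for a call (0.3, 0.05 and 1 TPM) follow the methods of the study. The intervals are 95%. All 10 members are named, with the called genes and the 2 most abundant genes of each pathway list, every tested FGF gene, genes that overlap a member, markers and, for the highest receptor and ligand, the 3 nearest profiles. The members and lists were chosen with earlier results of these data known. *Anos1* and *Spry3* were not matched by symbol. The alternatives were a replicate block, scaling by TMM or by library totals, recovered reads in edgeR 4.0.16 and DESeq2 1.42.0, other limma options, filters, pseudocounts (0.5 and 5) and thresholds, and each library left out. A crossed block was added after seeing the data. All fitted tools were first tested on simulated data. Python 3.11.15 with matplotlib 3.10.9 drew the figures.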

Additional observations from a re-analysis of the deposited data

How the results depend on the processing

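The count of 562 called genes depended on the processing. It was 125 with the replicate number as a block, 1535 with DESeq2, 0 without limma's trend and robust options (3425 at an unadjusted p under 0.05), 1120 with no filter on low counts, 1488 at an adjusted p under 0.1 and 26 to 1430 with a library left out (26 without the first *Osr1*GCE/GCE-labelled library, 217 without the second, 1430 without the second *Osr1*controls library). Other settings moved it less, and the cause was not tested. Deviations of libraries with the same number correlated at -0.12 over genes. This rests on a single difference between libraries in each group, so it cannot decide whether the number pairs them. A crossed block, added after seeing the data, gave 1282 calls and none among the 10 genes. Under library totals 480 of 677 calls were lower and under TMM 232 of 468, against 341 of 562. Of the 10 genes, DESeq2 and an adjusted p under 0.1 each called 2, no filter called 1, and fits with a library left out called 0 to 1, while the replicate block called 0. Over 15 alternatives for each of the 10 genes, 140 of 150 results kept direction and side of the threshold, 4 gained a call and 6 turned direction. The blocks, the limma options and the filters leave the fold changes as they were, so those results could not turn direction. Changed thresholds, such as an adjusted p under 0.1, were not among the 15. *Fgfr1* turned under library totals (-0.0044) and, with libraries left out, ranged from -0.087 to 0.22, *Fgfr3* from -0.22 to 0.16 and *Fgf10* from -0.68 to 0.067. Of other FGF genes, *Fgf14* turned under library totals (-0.020) and *Fgf16* under DESeq2 (0.11), edgeR (0.10) and a pseudocount of 5 (0.0071). With libraries left out *Fgf5* ranged from -0.026 to 0.23, *Fgf8* from -0.083 to 0.27, *Fgf14* from -0.075 to 0.18, *Fgf15* from -2.29 to 1.07, *Fgf16* from -0.61 to 0.58 and *Fgf17* from -0.49 to 0.18. The depth of the ligands, 34 to 435 reads a library, and 2 libraries a group limit what could be called.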

Other observations

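The first *Osr1*controls library stood apart in several genes outside the FGF lists. *Flt1*, a blood endothelial gene, had 3672 and 2666 normalized counts in the *Osr1*GCE/GCE-labelled libraries, against 8932 and 4134 in *Osr1*controls. *Vwf* had 1348 and 1153 in the *Osr1*GCE/GCE-labelled libraries, against 3285 and 1388 in *Osr1*controls, and *Aplnr* 1429 and 1406, against 3403 and 1416. *Col2a1*, a cartilage collagen, had 9366 and 9325 in the *Osr1*GCE/GCE-labelled libraries, against 18863 and 10325 in *Osr1*controls. Among the 10 FGF genes this library was the highest of the 4 in *Fgfr4*, *Fgfrl1*, *Fgf2* and *Fgf9*, and the other *Osr1*controls library was the highest in *Fgfr2*, *Fgf7* and *Fgf18*.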
